A study of Mus musculus with 48 samples.

Results

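The genes described are 7 subunits of the GABA-A receptor, *Gabra2*, *Gabra3*, *Gabra4*, *Gabra5*, *Gabrb1*, *Gabrb2* and *Gabrd*, taken by symbol from the 24444 genes of the deposited expression table. All 7 were found there, and all 7 passed the filter on low values at every age. Their levels were measured by RNA-seq in the cortex of 48 male mice on the C57BL/6J background, with 6 WT and 6 Chd8 V986*/+ mice in each of the ages E14.5, 1 month, 6 months and 12 months. Chd8 V986*/+ mice carry, on one of their *Chd8* alleles, a CRISPR insertion with stop codons at V986 and E987, and the line descends from a single founder. WT mice were littermates without the insertion. No group received a treatment, and each RNA sample came from the cortical hemisphere of 1 mouse. *Chd8* encodes a chromatin remodeler. The comparisons address whether the subunits change as the cortex matures and ages and whether the *Chd8* mutation moves them at any age.

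GABA-A receptors are chloride channels opened by GABA, the main inhibitory transmitter of the adult brain. Each is a ring of subunits, usually α and β subunits together with a γ or a δ subunit, and the α subunit largely sets how the channel responds to benzodiazepines and how fast it closes. The α2, α3 and α5 subunits are known for their use in the immature brain, and α2 and α3 are also found at mature synapses, whereas α5 and the δ subunit serve mainly outside synapses. The α4 subunit often pairs with δ in receptors that carry tonic inhibition in forebrain neurons. β subunits, among them β1 and β2, carry part of the GABA binding site. C57BL/6J mice are also known for an intronic deletion in *Gabra2* that lowers its brain expression, and every mouse here is of that background.

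In mm9 (GENCODE vM1), *Gabra2* (chr5:71352296-71487088), *Gabra4* (chr5:71960973-72049547) and *Gabrb1* (chr5:72091171-72529628) lie in 1 cluster on chromosome 5, with *Gabra2* and *Gabra4* on the minus strand and *Gabrb1* on the plus strand. *Gabra5* is at chr7:64663060-64765379 on the minus strand. *Gabrb2* (chr11:42233259-42446092, plus strand) lies beside *Gabra6*, and *Gabra3* (chrX:69678020-69902187, minus strand) beside *Gabrq*. *Gabrd* (chr4:154759089-154772221, minus strand) has no other subunit gene next to it. It is also the shortest of the genes, spanning 13133 bases, against 438458 bases for *Gabrb1*.

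Sequence upstream of a RefSeq start was at hand for 6 of the 7 members, with 10 starts in all. The 250 bases before the start are shown for 4 of them, as examples that differ widely in composition. All 7 members rose between E14.5 and 1 month, so the rise does not set these 4 apart. Coordinates are those of GRCm38.p6. Sequences are written 5′ to 3′ along the gene. Capitals mark matches, on either strand, to TATAAA (the TATA box), GGGCGG (a GC box), CAGATG (an E-box), TGACGT (part of a cAMP response element) and GCATGC (part of an NRF1 site).
*Gabra2*, chr5:71095850-71096099, minus strand: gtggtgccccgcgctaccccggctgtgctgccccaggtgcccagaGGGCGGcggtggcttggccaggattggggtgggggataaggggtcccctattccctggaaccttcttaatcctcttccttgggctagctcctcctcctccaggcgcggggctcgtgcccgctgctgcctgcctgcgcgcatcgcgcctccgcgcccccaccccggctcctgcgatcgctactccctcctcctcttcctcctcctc
*Gabra3*, first start, chrX:72656920-72657169, minus strand: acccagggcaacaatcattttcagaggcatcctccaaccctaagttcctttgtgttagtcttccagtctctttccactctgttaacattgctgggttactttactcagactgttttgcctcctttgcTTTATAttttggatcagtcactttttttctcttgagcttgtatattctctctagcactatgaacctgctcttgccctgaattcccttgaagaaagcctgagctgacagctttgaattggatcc
*Gabra4*, chr5:71658309-71658558, minus strand: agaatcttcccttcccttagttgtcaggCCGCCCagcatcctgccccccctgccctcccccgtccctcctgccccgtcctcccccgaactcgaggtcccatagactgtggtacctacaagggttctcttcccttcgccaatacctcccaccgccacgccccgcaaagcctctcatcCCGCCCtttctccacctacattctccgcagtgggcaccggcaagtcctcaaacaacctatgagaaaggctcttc
*Gabrb2*, first start, chr11:42420190-42420439, plus strand: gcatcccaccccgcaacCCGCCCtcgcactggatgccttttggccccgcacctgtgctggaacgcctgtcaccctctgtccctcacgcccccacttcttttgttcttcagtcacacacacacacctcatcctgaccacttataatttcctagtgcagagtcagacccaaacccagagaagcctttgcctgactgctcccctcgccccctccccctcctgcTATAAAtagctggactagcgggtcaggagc

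The stretch before *Gabra2* was 70.0% G or C and held 18 CpG dinucleotides, more than 78.3% of the 32851 promoters in the table. The stretch before the first *Gabra3* start was 42.4% G or C and held 0 CpG. That of *Gabra4* was 61.2% G or C with 12 CpG, and that of *Gabrb2* was 58.8% G or C with 8 CpG. TATAAA or its complement was present 30 bases before the first *Gabrb2* start and 123 bases before the first *Gabra3* start, and 12.4% of all promoters held it within the same 250 bases. GGGCGG was found before *Gabra2* (1 match), *Gabra4* (2 matches) and *Gabrb2* (1 match), against 32.7% of all promoters. CAGATG (14.4% of all promoters), TGACGT (6.5%) and GCATGC (6.7%) had no match in these 4 stretches. CAGATG had 1 match before *Gabra5*, and GCATGC had 1 before the second of the *Gabrb1* starts. The first RefSeq start of *Gabrb1* lies 387 bases inside *Gabra4*, on the other strand. The labels name a TruSeq kit and the methods a stranded KAPA protocol, and how strand entered the counting is not given in the sources used here, so reads of *Gabra4* and of that first *Gabrb1* exon may not have been told apart.

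Values are variance-stabilizing transformation (VST) values on a log2 scale, so a difference of 1 is a doubling where expression is high and understates the change where it is low. The most frequent value in the table, 2.1433, was taken as the floor, about the level of a gene with no reads. It held for 15.7% of all values, and 6.06% lay below it. The depth behind a single value is unknown from this table. Differences were tested with limma over every gene averaging 0.5 or more above that floor, with *p* adjusted over all of them by Benjamini and Hochberg (adjp). A gene with adjp below 0.1, the threshold of the study, was called. The study applied it to DESeq2 tests with a batch correction, so its calls and those made here by limma are not alike. As a check of the labels, *Chd8* at E14.5 ranged from 12.33 to 12.66 in WT and from 11.60 to 12.03 in Chd8 V986*/+ embryos. Its group means at the later ages were 11.65 to 11.75 in WT and 11.05 to 11.11 in Chd8 V986*/+ mice. The genotypes did not overlap in *Chd8* at any age. Fewer cells of a type and less RNA per cell cannot be told apart in RNA from whole tissue.

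All 7 subunits rose between E14.5 and 1 month, in WT as in Chd8 V986*/+ mice, by at least 3.23-fold on the VST scale. The rise was largest for *Gabrd* and smallest for *Gabra2* and *Gabra3*. In the whole table, 43.4% of 17285 genes rose in WT and 43.7% of 17227 in Chd8 V986*/+ mice, and about as many fell. No 1-month mouse overlapped with an E14.5 mouse of its genotype in any of the 7 genes. The share of all genes that separated in this way was not counted, so the separation cannot be called particular to these subunits. The 4 α subunits thus all rose over this interval, and none of the 7 fell.

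The α subunits other than α4 come first. *Gabra2* encodes α2, which sits at synapses onto the cell body and the axon initial segment. Its lowest, median and highest values at E14.5 were 8.23, 8.58 and 8.78 in WT and 8.23, 8.58 and 8.96 in Chd8 V986*/+ mice. At 1 month they were 10.05, 10.30 and 10.43 in WT and 10.27, 10.32 and 10.51 in Chd8 V986*/+ mice. Every 1-month value lay above every E14.5 value. The rise of *Gabra2* was 1.69 ± 0.09 (SE) in WT (adjp = 4e-11) and 1.76 ± 0.09 in Chd8 V986*/+ mice (adjp = 2.08e-11).

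*Gabra3* encodes α3, the α subunit carried by the X chromosome. At E14.5 it was at 9.80, 10.49 and 10.70 in WT (lowest, median, highest) and 10.08, 10.42 and 10.51 in Chd8 V986*/+ mice. At 1 month it was at 12.09, 12.12 and 12.26 in WT and 12.07, 12.21 and 12.27 in Chd8 V986*/+ mice. The 1-month mice lay close together, whereas 1 WT embryo, replicate 6 at 9.80, was well below the others. The rise was 1.72 ± 0.12 in WT (adjp = 9.9e-10) and 1.84 ± 0.07 in Chd8 V986*/+ mice (adjp = 4.46e-13).

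*Gabra5* encodes α5, abundant in hippocampus and in deep cortical layers. It went from 8.12, 8.79 and 9.13 in WT embryos to 10.76, 10.98 and 11.19 at 1 month. Chd8 V986*/+ mice went from 8.33, 8.84 and 9.17 to 10.87, 11.10 and 11.35. In both genotypes a gap of over 1 VST unit separated the ages. The rise of *Gabra5* was 2.24 ± 0.14 in WT (adjp = 2.91e-10) and 2.33 ± 0.13 in Chd8 V986*/+ mice (adjp = 6.65e-11).

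The partners of tonic inhibition, α4 and δ, rose most of the 7. *Gabra4* was at 8.16, 8.37 and 8.75 in WT embryos and at 11.75, 11.99 and 12.10 in WT mice of 1 month. In Chd8 V986*/+ mice it was at 8.04, 8.32 and 8.86 and then at 11.91, 12.10 and 12.14. The rise was 3.58 ± 0.09 in WT (adjp = 9.82e-15) and 3.65 ± 0.12 in Chd8 V986*/+ mice (adjp = 3.66e-14), or 11.9-fold and 12.6-fold. *Gabrd*, the gene of the δ subunit, was near the floor in embryos, at 3.57, 4.22 and 4.91 in WT and 4.14, 4.36 and 4.67 in Chd8 V986*/+ embryos. At 1 month it was at 10.26, 10.42 and 10.58 in WT and 10.27, 10.37 and 10.51 in Chd8 V986*/+ mice. No mouse of 1 month was within 5 VST units of any embryo of its genotype. Its rise of 6.15 ± 0.16 in WT (adjp = 1.16e-14) and 5.98 ± 0.11 in Chd8 V986*/+ mice (adjp = 3.6e-17) exceeded that of 99.7% and 99.6% of all genes tested, and it understates the change, since the scale is compressed near the floor.

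The β subunits rose as well. *Gabrb1* was at 6.18, 6.62 and 7.08 in WT embryos and at 9.53, 9.94 and 9.98 in WT mice of 1 month. Chd8 V986*/+ mice were at 6.19, 6.62 and 7.29 and then at 9.62, 9.86 and 9.91. *Gabrb2*, which encodes the most abundant β subunit of the adult brain, was at 10.71, 11.46 and 11.83 in WT embryos and 13.41, 13.48 and 13.67 at 1 month, and at 10.93, 11.12 and 11.45 and then 13.37, 13.48 and 13.59 in Chd8 V986*/+ mice. *Gabrb1* rose by 3.20 ± 0.14 in WT (adjp = 3.27e-12) and 3.15 ± 0.14 in Chd8 V986*/+ mice (adjp = 2.1e-12), and *Gabrb2* by 2.13 ± 0.15 (adjp = 1.69e-09) and 2.31 ± 0.09 (adjp = 6.26e-13).

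**Figure D1:**
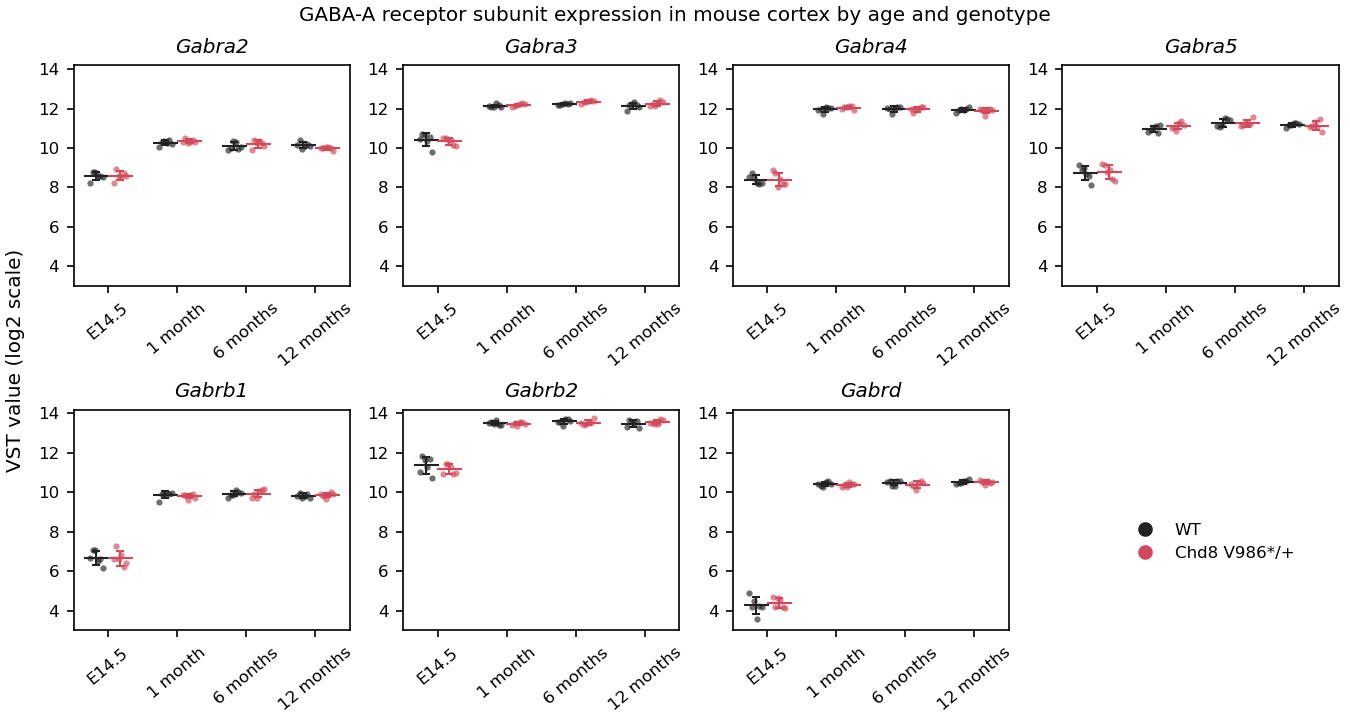
VST value (log2 scale) of each subunit in every mouse by age, with WT in black and Chd8 V986*/+ mice in red, and bars for mean and SD of 6 mice. All 7 subunits lay higher at each postnatal age than at E14.5, with *Gabrd* at a mean of 4.27 in WT embryos, and the genotypes overlapped throughout.

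The makeup of the tissue moved over the same interval. From E14.5 to 1 month in WT, the mean VST of 7 general neuronal markers went from 12.93 to 14.52, that of 8 progenitor markers from 11.55 to 7.87, that of 7 astrocyte markers from 8.36 to 13.12 and that of 11 interneuron markers from 8.99 to 10.30. Of the 7 neuronal markers, 4 rose and 2 fell in WT, with a median change of 2.37, and of the 11 interneuron markers 7 rose and 4 fell, with a median of 0.95. The part of tissue makeup in the rise was not tested. Among embryos, after removal of group means (n = 12), Pearson *r* with the mean of the neuronal markers was 0.95 for *Gabra3*, 0.92 for *Gabrb1*, 0.88 for *Gabrb2*, 0.77 for *Gabra5*, 0.54 for *Gabra4*, 0.32 for *Gabra2* and 0.23 for *Gabrd*. These values of *r* are a description, since the genes share libraries.

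Other genes of the pathway gave a mixed picture over this interval. Of 12 other GABA-A subunit genes, 10 were tested in WT, of which 6 rose and 2 fell. The genes that fell were *Gabre* by 0.79 ± 0.22 (adjp = 0.00337) and *Gabrq* by 1.13 ± 0.22 (adjp = 0.000206), which encode the rare ε and θ subunits. In Chd8 V986*/+ mice 7 rose and 2 fell. Of 28 genes of the inhibitory postsynapse and of receptor trafficking, 22 rose and 4 fell in each genotype. Of 6 GABA-B receptor genes, 5 rose and 1 fell in each genotype. The median change was 2.24 over the 7 members, 1.43 over the other subunits, 0.89 over the postsynaptic list and 0.02 over all genes tested in WT.

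Levels of different genes were compared per length, as VST minus log2 of the length in kilobases of the longest coding transcript in GENCODE vM1. In WT embryos the order of the mean levels per kilobase was *Gabra3* (8.54), *Gabrb2* (8.43), *Gabra2* (7.32), *Gabra5* (7.32), *Gabra4* (6.35), *Gabrb1* (5.05) and *Gabrd* (3.33). *Gabra3* and *Gabrb2* overlapped between mice, as did *Gabra2* and *Gabra5*, and the other 4 steps of that order did not overlap. In WT mice of 1 month the order was *Gabrb2* (10.56), *Gabra3* (10.27), *Gabra4* (9.93), *Gabra5* (9.56), *Gabrd* (9.48), *Gabra2* (9.01) and *Gabrb1* (8.25). *Gabra4* thus passed *Gabra2* and *Gabra5*, and *Gabrd* passed *Gabra2* and *Gabrb1*. *Gabra4* and *Gabra5*, and *Gabra5* and *Gabrd*, overlapped at 1 month. The order of means was the same at 6 and at 12 months and in Chd8 V986*/+ mice of every postnatal age. With the union of all exons as length, *Gabra3* and *Gabrb2* lay at 10.17 and 10.19 in WT of 1 month, and *Gabrd* at 8.90 fell below *Gabra2*. The transcript models used by the authors are not given in the sources used here, so the order rests on the lengths chosen.

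**Figure D2:**
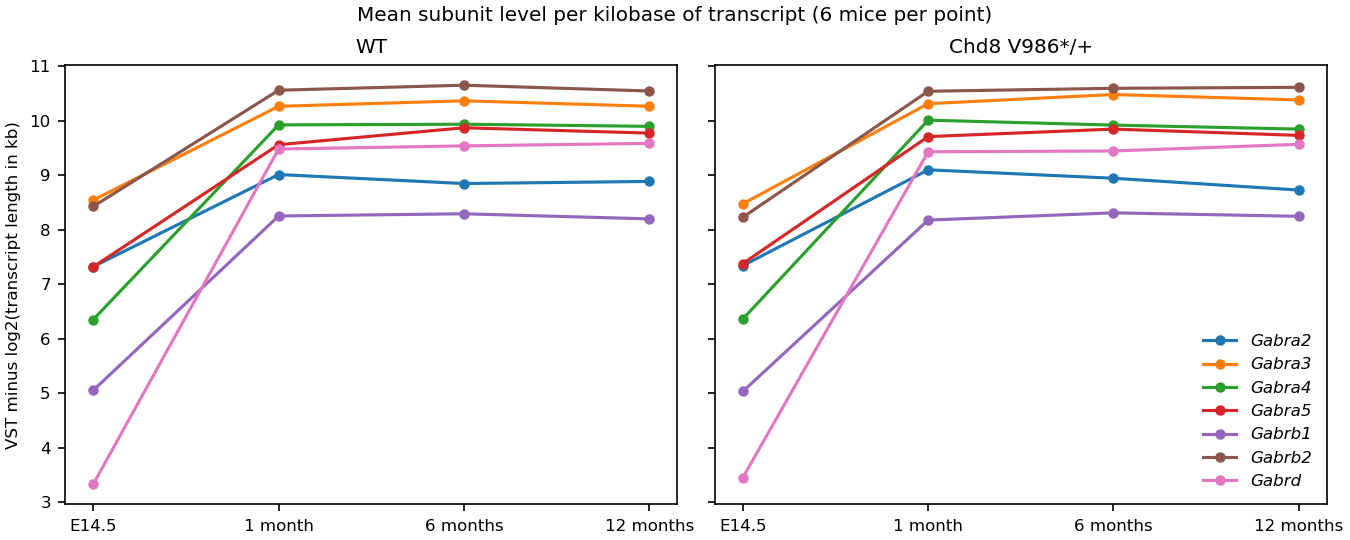
Mean level of each subunit per kilobase (VST minus log2 of transcript length in kilobases, 6 mice per point) by age in WT (left) and Chd8 V986*/+ mice (right). *Gabrd* starts lowest, at 3.33 in WT embryos, and crosses *Gabra2* and *Gabrb1* by 1 month with this choice of length, and *Gabra4* crosses *Gabra2* and *Gabra5*.

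After 1 month the subunits moved little. Between 1 and 6 months, 2 of 7 members rose in WT, *Gabra5* and *Gabra3*, where 12.3% of 17255 genes rose. In Chd8 V986*/+ mice 1 of 7 rose, *Gabra3*, where 14.0% of 17207 genes rose. No member was called lower in either genotype. The share in mutant mice was near its background, and the steps from 1 to 6 and from 6 to 12 months share the mice of 6 months. Marker lists of other cells moved over the same step. In WT, 7 of 7 oligodendrocyte markers fell (median −0.86), as did 4 of 7 astrocyte markers (−0.18) and 4 of 5 microglia markers (−0.25). In Chd8 V986*/+ mice 6 of 7 oligodendrocyte markers fell (−1.01), 1 of 7 astrocyte markers (−0.02) and 0 of 5 microglia markers (−0.06). Their part in the changes of the subunits was not tested.

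*Gabra5* in WT went from 10.76, 10.98 and 11.19 at 1 month to 11.04, 11.29 and 11.50 at 6 months. The highest 3 mice of 6 months lay above all mice of 1 month, and the rest overlapped. The rise was 0.31 ± 0.09 (adjp = 0.0204), with adjp at most 0.0503 when any 1 mouse was left out, and it was 0.19 (adjp = 0.178) in replicates 1 to 3 and 0.43 (adjp = 0.00954) in replicates 4 to 6. In 1 fit of all 48 samples it was not called (adjp = 0.102). In Chd8 V986*/+ mice *Gabra5* was at 11.11, 11.22 and 11.59 at 6 months, 0.14 ± 0.08 above 1 month (adjp = 0.262). Markers of dentate gyrus and hippocampus, where α5 is abundant, moved over the same step. Of these 9 markers, 4 rose and 1 fell from 1 to 6 months in WT (median 0.31), and 2 rose in Chd8 V986*/+ mice (median 0.21). Their mean level at 1, 6 and 12 months was 8.91, 9.26 and 9.22 in WT and 8.99, 9.19 and 8.89 in Chd8 V986*/+ mice, beside *Gabra5* means of 10.97, 11.28 and 11.18 and of 11.12, 11.26 and 11.14. None of the 9 was within 0.5 of the floor in any group, and their part in the change of *Gabra5* was not tested. The genotypes' changes of *Gabra5* did not differ detectably, with a difference of −0.17 and a 95% confidence interval (CI) from −0.44 to 0.09 (adjp = 0.999).

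*Gabra3* in Chd8 V986*/+ mice was at 12.22, 12.37 and 12.46 at 6 months, where 5 of 6 mice lay above every mouse of 1 month. The rise was 0.17 ± 0.04 (adjp = 0.0102), and adjp stayed at or below 0.0244 whichever 1 mouse was left out. It was not called in 1 fit of all 48 samples (adjp = 0.204) or in replicates 1 to 3 alone (0.16, adjp = 0.163). In WT it went to 12.18, 12.25 and 12.30, a rise of 0.10 ± 0.04 (adjp = 0.0749). The WT call was lost, with adjp from 0.103 to 0.158, when replicate 1, 2, 3 or 6 of 1 month or replicate 3, 4, 5 or 6 of 6 months was left out. At 12 months *Gabra3* was back at 12.14 ± 0.15 (SD) in WT, a mean 0.00 above that of 1 month. In Chd8 V986*/+ mice it was at 12.26 ± 0.12 (SD), 0.07 ± 0.05 above 1 month (adjp = 0.324), with 3 of 6 mice above all mice of 1 month.

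Between 6 and 12 months, 0 of 7 members were called by limma in WT, where 0.00579% of 17283 genes were, and 0 of 7 in Chd8 V986*/+ mice, where 3.43% of 17254 were. At an unadjusted *p* below 0.05 the counts were 0 of 7 and 1 of 7 members, against 1167 of 17283 and 2744 of 17254 genes. The 1 was *Gabra2* in Chd8 V986*/+ mice, at 9.90, 10.25 and 10.40 at 6 months and 9.84, 10.01 and 10.05 at 12 months, a difference of −0.22 ± 0.07 (adjp = 0.135). Without replicate 1 of the mutant mice at 6 months, which was itself low at 9.90, the difference was −0.28 and was called (adjp = 0.0261).

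**Figure D3:**
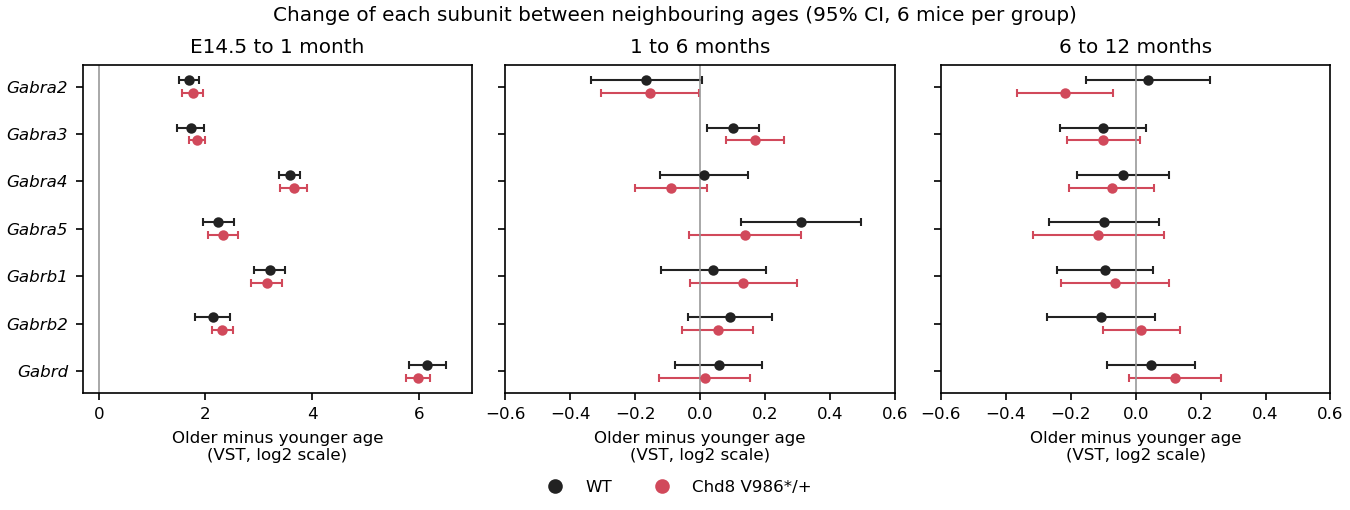
Difference between neighbouring ages (VST, log2 scale, older minus younger) of each subunit in WT (black) and Chd8 V986*/+ mice (red), with 95% CI and 6 mice per group. The first panel has a wider axis. The rises from E14.5 to 1 month run from 1.69 to 6.15, and the later changes from −0.22 to 0.31.

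Since *Gabra2* lay lower at each later age in Chd8 V986*/+ mice, 1 and 12 months were also compared directly, a comparison chosen after the values were seen. *Gabra2* in these mice went from 10.27, 10.32 and 10.51 at 1 month to 9.84, 10.01 and 10.05 at 12 months, and all 6 mice of 12 months lay below all 6 of 1 month. The difference was −0.37 ± 0.05 (95% CI from −0.47 to −0.27, adjp = 2.65e-05), so that the level at 12 months was 77.2% of that at 1 month. In this comparison limma called 39.0% of 17247 genes in either direction, and the share of genes that separated without overlap was not counted. The fall of *Gabra2* was −0.35 (adjp = 0.0161) in replicates 1 to 3 and −0.39 (adjp = 0.00179) in replicates 4 to 6. With any 1 mouse left out, adjp was at most 0.000115. These fits reuse the mice in which the fall was first seen, so they are not independent support for it. In WT *Gabra2* went from 10.05, 10.30 and 10.43 to 9.93, 10.12 and 10.43, and the ages overlapped (−0.13 ± 0.08, adjp = 0.312). Without WT replicate 2 of 12 months, the highest at 10.43, the WT difference was −0.18 (adjp = 0.0889). The difference between the genotypes' changes was −0.25 ± 0.10 (95% CI from −0.44 to −0.05), which limma did not call (adjp = 0.334), so a fall in the mutant alone was not shown.

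In the same comparison *Gabra4* was lower by 0.16 ± 0.06 in Chd8 V986*/+ mice at 12 months than at 1 month (−0.16, adjp = 0.039), and *Gabrd*, its frequent partner, was higher by 0.14 ± 0.05 (adjp = 0.0442). In WT only *Gabra5* was called, 0.21 ± 0.07 higher (adjp = 0.0618). That call was lost, with adjp from 0.109 to 0.141, when replicate 4 or 5 of 12 months or replicate 1, 2 or 5 of 1 month was left out. The members called were thus 3 of 7 in Chd8 V986*/+ mice and 1 of 7 in WT, against 39.0% of 17247 and 21.4% of 17267 genes called in either direction. Neither *Gabra4* nor *Gabrd* was called in replicates 1 to 3 alone or in replicates 4 to 6 alone. In 1 fit of all 48 samples both calls were lost too (adjp = 0.219 for *Gabra4* and 0.409 for *Gabrd*). Among postnatal mice (n = 36, group means removed), *Gabra4* and *Gabrd* varied together (*r* = 0.71). Both also varied with 12 markers of striatal medium spiny neurons (*r* = 0.46 and 0.60), whose mean ranged from 9.42 to 11.03 between WT mice of 1 month, with no marker near the floor. *Gabra5* varied against that mean (*r* = −0.47), and the other members had *r* from −0.16 to 0.07. With the striatal mean as a covariate, chosen after the values were seen, *Gabra4* was at −0.17 (adjp = 0.0204), *Gabrd* at 0.13 (adjp = 0.0324) and *Gabra2* at −0.37 (adjp = 3.33e-05) in Chd8 V986*/+ mice. In WT, *Gabra5* was at 0.27 (adjp = 0.0978) with that covariate.

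**Figure D4:**
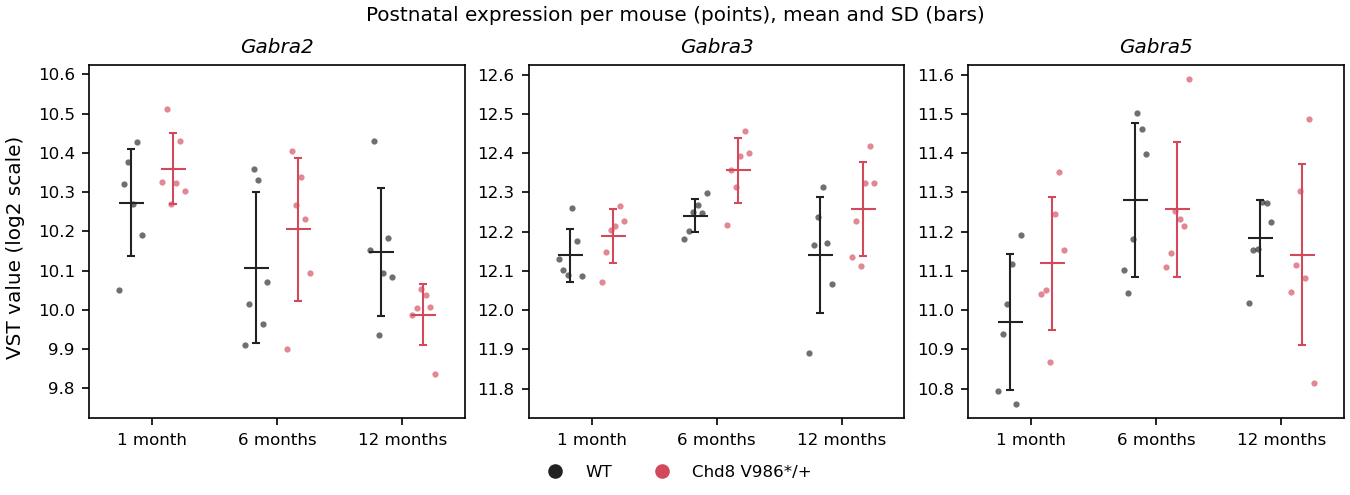
VST values of *Gabra2*, *Gabra3* and *Gabra5* in every postnatal mouse, WT in black and Chd8 V986*/+ mice in red, with mean and SD of 6 mice. The axes do not start at 0. All 6 Chd8 V986*/+ mice of 12 months lay below all 6 of 1 month in *Gabra2*, whereas the WT ages overlapped. This comparison was chosen after the values were seen, and limma called 39.0% of 17247 genes in it in Chd8 V986*/+ mice. The share of genes that separated without overlap was not counted, so the separation cannot be called particular to *Gabra2*.

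The other pathway genes were followed after 1 month as well. Between 1 and 6 months, 2 of 10 other GABA-A subunits rose and 1 fell in WT, and 1 rose in Chd8 V986*/+ mice. *Gabrr2*, a ρ subunit best known from retina, rose in both, by 0.74 ± 0.25 (adjp = 0.0508) in WT and 0.68 ± 0.21 (adjp = 0.0295) in mutant mice, at a low level of 3.93 in WT of 1 month. Of the 28 genes of the inhibitory postsynapse, 3 rose and 3 fell in WT, and 6 rose and 9 fell in Chd8 V986*/+ mice, with a median change of −0.01 and −0.03 against 0.01 over all genes in each. Over all genes, 2122 rose and 2120 fell of 17255 in WT, and 2409 rose and 2200 fell of 17207 in Chd8 V986*/+ mice. *Nrxn2*, a presynaptic neurexin, fell by 0.28 ± 0.04 in WT (adjp = 0.000208) and 0.20 ± 0.04 in mutant mice (adjp = 0.00205). Between 6 and 12 months 0 of 28 were called in WT and 2 of 28, both lower, in Chd8 V986*/+ mice. These were *Trak1*, a transport adaptor, by 0.20 ± 0.04 (adjp = 0.0352), and *Igsf9b*, an adhesion molecule of inhibitory synapses, by 0.32 ± 0.07 (adjp = 0.0383).

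The *Chd8* mutation did not move any of the 7 subunits past the threshold at any age. Members called numbered 0 of 7 at E14.5, 1, 6 and 12 months by limma, and 0.00593% of 16877, 0.139% of 17221, 0.0927% of 17256 and 0.0463% of 17288 genes were called at these ages. At an unadjusted *p* below 0.05 there were 0, 0, 1 and 1 members. Over all genes, limma gave such a *p* for 769 of 16877, 1515 of 17221, 1310 of 17256 and 2000 of 17288. Genotypes overlapped in every member at every age, so no member separated WT from Chd8 V986*/+ mice. These comparisons share their mice with the comparisons of ages above.

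The member past that unadjusted threshold at 6 months was *Gabra3*, at 12.18, 12.25 and 12.30 in WT and 12.22, 12.37 and 12.46 in Chd8 V986*/+ mice. In 5 of 6 mutant mice it lay above all WT mice. The difference was 0.12 ± 0.04 (95% CI from 0.03 to 0.20, adjp = 0.503). It was 0.09 in replicates 1 to 3 and 0.15 in replicates 4 to 6. *Gabra3* was 0.12 ± 0.07 higher at 12 months too (adjp = 0.532), with 3 of 6 mutant mice above all WT mice.

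At 12 months that member was *Gabra2*, at 9.93, 10.12 and 10.43 in WT and 9.84, 10.01 and 10.05 in Chd8 V986*/+ mice. All mutant mice lay below the WT median, within or below the WT range. The difference was −0.16 ± 0.07 (95% CI from −0.31 to −0.01, adjp = 0.401). At 1 and 6 months *Gabra2* was 0.09 ± 0.06 and 0.10 ± 0.09 higher in mutant mice (adjp = 0.714 and 0.859), the opposite sign.

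Precision was lowest in embryos. At E14.5 the widest interval was that of *Gabrd*, from −0.30 to 0.54, and that of *Gabrb2* ran from −0.57 to 0.17 around −0.20 (adjp = 0.982). *Gabrb2* in embryos varied with the mean of 28 markers of midbrain, hindbrain and spinal cord (*r* = 0.72, n = 12, group means removed). For the other members, *r* with that mean ran from −0.30 for *Gabra4* to 0.49 for *Gabra3*. That mean ran from 3.19 to 6.43 in WT embryos, with replicate 5 highest, and from 3.11 to 4.24 in Chd8 V986*/+ embryos. Of these 28 markers, 6 had a group mean within 0.5 of the floor in WT embryos and 16 in mutant embryos. With the mean as a covariate the *Gabrb2* difference was 0.08 (adjp = 1), the opposite sign. The marker mean itself differed by genotype, at 4.46 over WT and 3.51 over mutant embryos, so the covariate cannot be told apart from genotype. The part of such tissue in the *Gabrb2* difference was not tested. After birth the intervals were narrower, and the largest of the absolute bounds at 1 month was 0.32, for *Gabra5*, at 10.76, 10.98 and 11.19 in WT and 10.87, 11.10 and 11.35 in mutant mice.

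**Figure D5:**
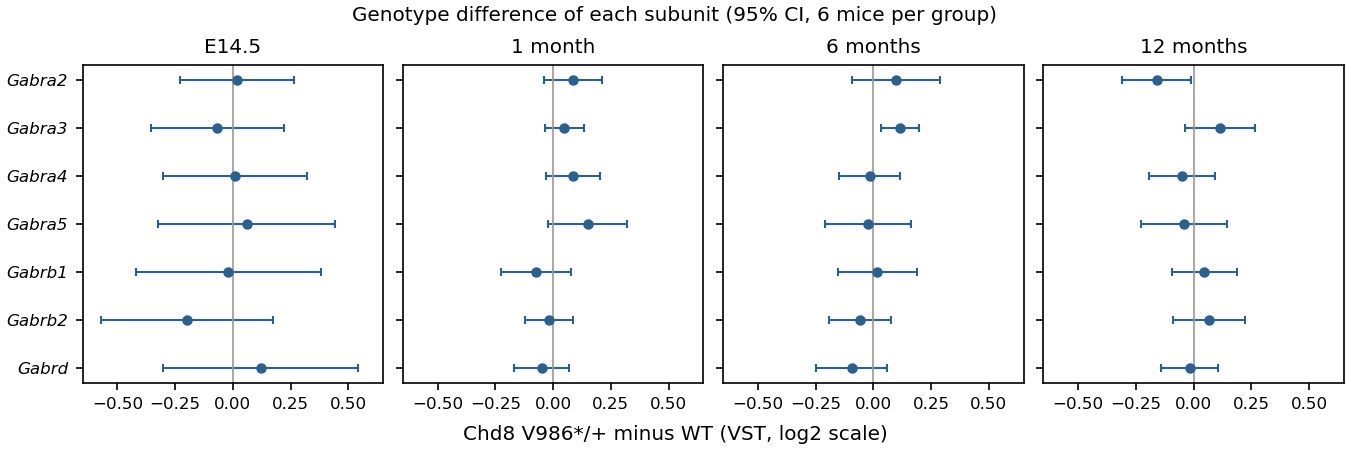
Difference between Chd8 V986*/+ and WT mice (VST, log2 scale) of each subunit by age, with 95% CI and 6 mice per genotype. The interval excludes 0 for *Gabra3* at 6 months (0.03 to 0.20) and *Gabra2* at 12 months (−0.31 to −0.01), and neither passed adjp below 0.1.

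The genotype effect itself did not differ detectably between ages in any member. Members called numbered 0 of 7 from E14.5 to 1 month, from 1 to 6, from 6 to 12 and from 1 to 12 months, where limma called 0%, 0%, 0.0116% and 0% of all genes. At an unadjusted *p* below 0.05 the counts of members were 0, 0, 1 and 1. Over all genes they were 662 of 17249, 797 of 17236, 1473 of 17271 and 1973 of 17260. The last 2 comparisons share the mice of 12 months, and in both the member was *Gabra2*. From 6 to 12 months its genotype effect moved by −0.26 ± 0.12 (adjp = 0.574). Of the other GABA-A subunits, the postsynaptic list and the GABA-B list, 0 genes were called between genotypes at any age. At E14.5 all 9 other subunits tested were lower in Chd8 V986*/+ embryos, none past the threshold, with a median of −0.09 against 0.01 over the 7 members and 0.00 over all genes. At that age the 20 tested markers of midbrain, hindbrain and spinal cord were lower in mutant embryos too (median −1.19), as were the 7 neuronal markers (−0.07), whereas the 8 progenitor markers were higher (0.11). limma called none of these markers, 7 of the 20 had an unadjusted *p* below 0.05, and their part in the values of the subunits was not tested.

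The genes most like each member over all 48 mice were found by Pearson *r* among 16307 genes. They were *Trim9*, *Klhl2* and *Chst2* for *Gabra2* (*r* = 0.98 each), *Dpp10*, *Vsnl1* and *Rasgrf2* for *Gabra3* (up to 0.996), and *Gria1*, *Gnai1* and *A830018L16Rik* for *Gabra5* (up to 0.991). *Nptn*, *Ppp3r1* and *Thy1* were nearest *Gabra4* (up to 0.997), *Camk2b*, *Prkce* and *Stum* nearest *Gabrb1* (up to 0.996), *Scn2a*, *Slc12a5* and *Lsamp* nearest *Gabrb2* (up to 0.997), and *Kcnip2*, *Sult4a1* and *Ptk2b* nearest *Gabrd* (up to 0.998). Over all ages *r* is dominated by the step from embryo to 1 month. Between 1635 genes for *Gabra2* and 2978 for *Gabrd* had an *r* above 0.95, so it does not single out a partner. Within postnatal groups, the members differed in how they varied with each other. *Gabra2* and *Gabra4* had an *r* of −0.37 and *Gabrb1* and *Gabrb2* one of 0.53 (n = 36).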

How the data were processed

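Cortical RNA-seq values of 7 GABA-A receptor subunit genes were analysed in 48 male mice. The authors aligned reads with STAR 2.5.2b to mm9, quantified transcripts with Salmon 0.11.3 and deposited 1 table of variance-stabilizing transformation values, on a log2 scale, from DESeq2, whose model included a correction for batch (tools and build as in the submitters' processing notes and the methods). The batch is not named. The means of replicates 1 to 3 and 4 to 6 of every gene agreed to 3.38e-14, which shows that this split had been levelled out before deposit. This can make the spread between mice, and so the p-values, too small.

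Groups and replicate numbers came from sample titles. Counts were not used here, so count models were not run. Genes were tested with limma 3.58.1 in R 4.3.3 (intensity trend, moderated two-sided tests, 95% confidence intervals) within the groups of each comparison, if their mean was at least 0.5 above the floor of 2.1433, and p-values were adjusted over all genes tested. The fits were tested on simulated data. Chd8 V986*/+ (HET) against WT at 4 ages, steps between ages within genotype and their interaction were tested. The members and lists were chosen with earlier results of these data known. The genes named are the 7 members in every comparison, up to 3 genes of each pathway list with the lowest adjp and any called between genotypes, the 3 genes most like each member and *Chd8*. Some genes that this rule selects are not reported here. *Gabre* and *Gabrq* were named after their values were seen, and the comparison of 1 with 12 months was added then too.

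Same-numbered mice were not paired by the labels. The correlation of their deviations from group means ran from 0.011 to 0.612 at E14.5 (mean 0.238, against −0.046 for other numbers), and its lowest value was below 0 at the other ages. At no age did every pair pass 0.1, so the numbers were not taken to pair samples. Coordinates of genes are from GENCODE vM1 (mm9), and upstream sequences and their coordinates from RefSeq (GRCm38.p6). Alternatives are listed under the dependence on processing. Values of read depth were taken from the study's list as a covariate in 1 alternative and are not reported.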

Additional observations from a re-analysis of the deposited data

Results flagged for a closer look

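In 6 of 56 groups of 6 mice, 8 groups for each of 7 members, 1 mouse stood apart from the rest by Dixon's criterion, which chance meets in about 1 of 20 groups. The mice below are named by genotype, age and replicate. No mouse appears more than once.

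*Gabra2* in Chd8 V986*/+ mice of 12 months was lowest in replicate 6, at 9.84, with the next mouse at 9.99. *Gabra4* in the same group was lowest in replicate 3, at 11.62 with the next at 11.92. *Gabra5* in Chd8 V986*/+ mice of 6 months was highest in replicate 6, at 11.59 with the next at 11.25. *Gabra3* in WT embryos was lowest in replicate 6, at 9.80 with the next at 10.36. *Gabra4* in WT of 6 months was lowest in replicate 3, at 11.72 with the next at 11.96. *Gabrb1* in WT of 1 month was lowest in replicate 1, at 9.53 with the next at 9.92. Leaving out the mouse changed no call of the gene in which it stood apart. Without WT replicate 1 of 1 month, though, *Gabra3* from 1 to 6 months (adjp = 0.117) and *Gabra5* from 1 to 12 months (adjp = 0.141) were no longer called in WT, and *Gabra2* from 1 to 6 months was (adjp = 0.0865). Without WT replicate 3 of 6 months, *Gabra3* from 1 to 6 months was no longer called (adjp = 0.103), and *Gabra2* (−0.22, adjp = 0.0599) and *Gabrb2* (0.14, adjp = 0.0877) were.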

How the results depend on the processing

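Changing 1 choice at a time left the rises from E14.5 to 1 month called in all 350 values (14 member results, 25 alternatives each), left all 777 genotype values uncalled (lowest adjp 0.181) and all 1057 values of a change in genotype effect uncalled (lowest adjp 0.148). Signs of uncalled values changed in 56 and 58 of the last 2 sets. Of 1092 values of the steps after 1 month, 33 lost and 14 gained a call, and 0 called values reversed.

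Members called from 1 to 6 months in WT (2 of 7) became 0 in 1 fit of all 48 samples, 1 without an intensity trend, 1 at adjp below 0.05, 0 in replicates 1 to 3 alone and 1 to 3 with 1 mouse left out. From 1 to 6 months in HET (1 of 7) the count was 0 in 1 fit of all 48 samples, 0 in replicates 1 to 3 alone, 2 in replicates 4 to 6 alone and 1 to 2 with 1 mouse left out. From 6 to 12 months in HET (0 of 7) it was 0 to 1 with 1 mouse left out. From 1 to 12 months in WT (1 of 7) it was 0 in 1 fit of all 48 samples, without a trend, at adjp below 0.05, in replicates 1 to 3 alone and in replicates 4 to 6 alone, and 0 to 2 with 1 mouse left out. From 1 to 12 months in HET (3 of 7) it was 1 in 1 fit of all 48 samples, 1 in replicates 1 to 3 alone and 5 after quantile normalization. The cause was not tested, apart from fewer mice in the sets of 3.

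Replicate numbers were not taken to pair samples. With a replicate block, 2 of 7 members were called from 1 to 6 months in HET and 3 of 7 in WT, *Gabra2* joining in each (adjp = 0.0722 and 0.0779), and no other count of members changed.

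The fall of *Gabra2* from 1 to 12 months in HET was called in all 26 alternatives, from −0.34 to −0.39. These alternatives reuse the mice in which the fall was first seen, so they are not independent support for it. Counts over all genes moved more than those of members. Between genotypes they ran from 0 to 303 at E14.5 (1 in the reported fit), 1 to 250 at 1 month (24), 1 to 38 at 6 months (16) and 0 to 1019 at 12 months (8), where leaving out WT replicate 3 gave 251. They ran from 1203 to 4916 from 1 to 6 months in WT (4242), 1275 to 4745 in HET (4609), 0 to 7 from 6 to 12 months in WT (1), 2 to 814 in HET (592), 912 to 4623 from 1 to 12 months in WT (3701) and 3173 to 6873 in HET (6723). For the change in genotype effect they ran from 0 to 9 from E14.5 to 1 month (0), 0 to 1 from 1 to 6 (0), 0 to 11 from 6 to 12 (2) and 0 to 231 from 1 to 12 months (0), with 231 and 158 when WT replicate 3 or 4 of 12 months was left out. Quantile normalization shifted the median of all genes by −0.11 from E14.5 to 1 month. Precision is limited by 6 mice a group, the compressed scale near the floor (*Gabrd* in embryos) and unknown depth per value.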
